A study of Mus musculus with 12 samples.

Results

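Glutathione is made, recycled and broken down by a small set of enzymes, and 9 of their genes (Gclc, Gclm, Gss, Gsr, Ggt1, Ggct, Oplah, Anpep and Chac2) were followed here in whole kidney RNA of 12 mice. The members were taken by gene symbol from a table of 22053 rows. Each symbol had 1 row, and all 9 were among the 13148 genes tested, those that reached 1 FPKM or more in 4 or more mice. FPKM is a level of fragments per unit of transcript length, relative to all mapped reads of the same mouse.

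All mice were wild-type C57BL/6. Control mice (n = 4) ate a diet without adenine and were given weekly i.p. PBS. CKD mice (n = 4) ate the same diet with 0.2% adenine between 8 and 16 weeks of age and were also given PBS. CKD+Fe mice (n = 4) ate the adenine diet and were given iron dextran i.p. once a week at 0.5 g/kg. Each mouse gave 1 library, and whole tissue was used, so fewer cells of a type and less RNA per cell cannot be told apart.

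In the kidney, the proximal tubule makes glutathione from glutamate, cysteine and glycine, and its brush border takes apart the glutathione that leaves the cell. The catalytic subunit Gclc and the modifier subunit Gclm form glutamate-cysteine ligase, the rate-limiting enzyme, and glutathione synthetase (Gss) adds glycine. Glutathione reductase (Gsr) returns the oxidized disulfide to the reduced form. On the outer membrane gamma-glutamyltransferase (Ggt1) removes the glutamyl group and aminopeptidase N (Anpep) can split the remaining dipeptide. Inside the cell Chac2 degrades glutathione itself, Ggct turns gamma-glutamyl amino acids into 5-oxoproline, and 5-oxoprolinase (Oplah) returns 5-oxoproline to glutamate.

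In control kidneys Ggt1 had the highest level of the 9 genes, 1103 ± 191 FPKM (SD, n = 4), above the range of the next gene. Gclm followed at 289 ± 27.0 FPKM and Gss at 265 ± 33.0 FPKM, and the ranges of these enzymes of synthesis overlapped. Gclc (136 ± 71.0 FPKM) and Anpep (123 ± 59.7 FPKM) varied most among control mice. Gsr (79.9 ± 5.74 FPKM) and Ggct (76.2 ± 17.5 FPKM) overlapped as well. The lowest levels were those of Oplah, 46.5 ± 11.6 FPKM, and Chac2, 32.7 ± 3.28 FPKM, which overlapped in range.

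Promoter sequences were available from RefSeq (GRCm38.p6) for 6 of the 9 genes (Gclm, Gss, Ggt1, Ggct, Anpep and Chac2), in 9 windows reaching from 250 bases before to 50 bases after a start site. Windows are shown for the 5 of these genes that were lower in every CKD and CKD+Fe mouse than in every control mouse. They were thus chosen by a result, given in the following paragraphs, and Anpep, whose groups overlapped, is not shown. The windows run 5′ to 3′ without the bases that lie in an annotated exon. For Ggt1, which had 4 windows, all within the span of the gene, the third in the direction of transcription is shown. It is the only one of the 4 with a whole core of the site described next outside exons and before the start, so this choice favours a match. Capitals mark the core of the antioxidant response element, the site of Nrf2 and its small Maf partners, searched as TGACNNNGC on both strands.
Gclm (chr3:122245307-122245556, plus strand): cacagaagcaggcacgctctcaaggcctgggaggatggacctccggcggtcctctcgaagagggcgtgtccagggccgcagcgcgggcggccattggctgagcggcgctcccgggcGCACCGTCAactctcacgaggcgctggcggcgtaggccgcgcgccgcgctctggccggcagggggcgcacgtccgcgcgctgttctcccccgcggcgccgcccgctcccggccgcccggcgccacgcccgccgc
Ggct (chr6:54992951-54993117, minus strand): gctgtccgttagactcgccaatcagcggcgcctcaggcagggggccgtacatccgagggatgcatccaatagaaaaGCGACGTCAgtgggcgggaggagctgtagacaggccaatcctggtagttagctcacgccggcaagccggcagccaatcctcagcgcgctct
Ggt1 (chr10:75571310-75571525, plus strand): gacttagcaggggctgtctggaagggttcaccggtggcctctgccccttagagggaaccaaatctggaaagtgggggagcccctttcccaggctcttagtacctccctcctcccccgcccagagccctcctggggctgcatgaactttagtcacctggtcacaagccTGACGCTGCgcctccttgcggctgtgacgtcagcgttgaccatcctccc
Gss (chr2:155592852-155593060, minus strand): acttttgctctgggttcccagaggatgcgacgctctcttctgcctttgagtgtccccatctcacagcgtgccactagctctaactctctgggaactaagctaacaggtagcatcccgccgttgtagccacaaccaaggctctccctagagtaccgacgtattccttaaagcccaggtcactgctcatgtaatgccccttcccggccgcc
Chac2 (chr11:30986366-30986615, minus strand): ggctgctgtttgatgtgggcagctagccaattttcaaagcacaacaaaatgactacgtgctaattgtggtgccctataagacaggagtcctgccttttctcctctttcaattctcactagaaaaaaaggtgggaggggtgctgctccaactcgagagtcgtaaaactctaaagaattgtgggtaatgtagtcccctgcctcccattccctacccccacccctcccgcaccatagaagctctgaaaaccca

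The core was found in 3 of the 6 genes and in 5 of the 9 windows, and 12.4% of all 32851 windows hold it. Ggt1, with 4 windows, is counted more than once among the windows with a match. The share of all genes with a match in any window is not given here. It lay 134 bases before the start of Gclm and 174 bases before that of Ggct. Ggct had another match 6 bases after its start. In Ggt1 it lay 83 bases before the start of the window shown, and the first and second windows each held 1 match. The windows of Gss, Chac2 and Anpep held no match to these letters. The HNF1 half-site GTTAAT (7.10% of all windows) and the HNF4 site CAAAGTCCA (0.475% of all windows), which belong to factors of tubular epithelium, matched none of the 9 windows. These are matches of letters, and binding was not measured.

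The comparison of CKD with control mice asks how the adenine diet moved the pathway. In CKD kidneys 7 of the 9 genes fell, and the enzymes of synthesis (Gclc, Gclm, Gss) and of breakdown (Ggt1, Anpep, Ggct, Chac2) were both represented. Gsr and Oplah did not pass the test. Over all 13148 genes, 13.3% were lower and 54.6% were higher at the same threshold (limma on log2(FPKM + 1), Benjamini-Hochberg adjusted p under 0.05), and the median log2 fold change was 0.50. The median of the 9 genes was -1.53. The plots of level by mouse and of fold change show each gene.

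**Figure D1:**
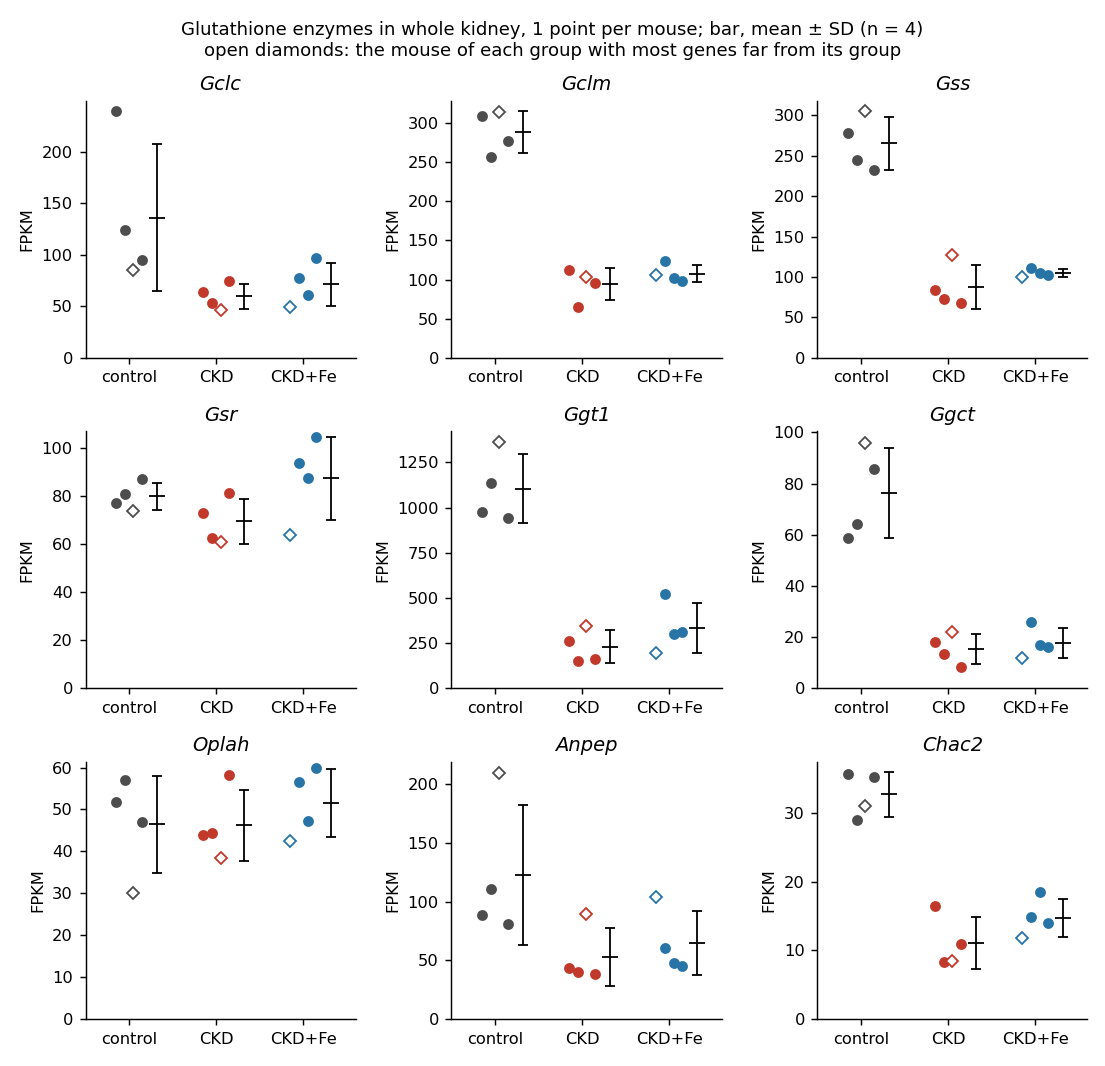
Level of each gene in FPKM (vertical axes, starting at 0) in the 4 mice of each group, with mean ± SD beside the points. Open diamonds are control mouse 042301, CKD mouse 110310 and CKD+Fe mouse 042702, which had the most genes far from the rest of their group. All CKD points lie below all control points for Gclc, Gclm, Gss, Ggt1, Ggct and Chac2.

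Gclm (ENSMUSG00000028124, chr3:122245557-122270732 of GRCm38, plus strand) was at 308.5, 257, 314 and 276 FPKM in the control mice and at 112, 64.7, 103 and 95.2 FPKM in the CKD mice. The groups were far apart, and the CKD mean was 32.5% of the control mean. Its log2 fold change was -1.64 (SE 0.16, adjusted p = 2.5e-06).

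Gss (ENSMUSG00000027610, chr2:155563181-155592810, minus strand) completes the tripeptide. It was at 278, 245, 306 and 233 FPKM in control mice and at 83.8, 72.5, 127 and 67.3 FPKM in CKD mice. The CKD mouse at 127 FPKM, mouse 110310, was still well below the lowest control mouse. This was a log2 fold change of -1.62 (SE 0.18, adjusted p = 5.1e-06).

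Gclc (ENSMUSG00000032350, chr9:77754535-77794485, plus strand), the catalytic subunit, was at 239.8, 124, 85.7 and 95.1 FPKM in control mice and at 64.1, 53.7, 46.4 and 74.3 FPKM in CKD mice. Control mouse 012811 was high, and the groups came close to each other at 85.7 and 74.3 FPKM without overlapping. On the log2 scale the change was -1.08 (SE 0.29, adjusted p = 0.0052), and it was -0.76 (adjusted p = 0.012) without mouse 012811.

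Gsr (ENSMUSG00000031584, chr8:33652523-33698163, plus strand) was at 77.2, 81.0, 74.1 and 87.4 FPKM in control mice and at 73.1, 62.7, 61.1 and 81.3 FPKM in CKD mice. The groups overlapped. With a log2 fold change of -0.20 (95% interval -0.54 to 0.13, adjusted p = 0.25), levels of 0.690 to 1.09 times the control level lie within the interval. After rescaling each mouse by the median of ratios, which moves the median of all genes to 0.01, Gsr was lower in CKD at -0.78 (adjusted p = 0.0014).

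At the brush border, Ggt1 (ENSMUSG00000006345, chr10:75561604-75586200, plus strand) was at 977, 1134, 1360 and 941 FPKM in control mice and at 262, 149, 346 and 163 FPKM in CKD mice. The highest CKD mouse stayed far below the lowest control mouse, and the CKD mean was 20.9% of the control mean. Its log2 fold change of -2.33 (SE 0.30, adjusted p = 2.0e-05) was the lowest of the 9 genes, close to that of Ggct. The order of these 2 genes turned in some alternatives. With quantile normalization Ggct was at -2.43 and Ggt1 at -1.96, and with a pseudocount of 0.1 they were at -2.340 and -2.332. Ggt1 is the entry to extracellular breakdown and a classical enzyme marker of the brush border.

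Anpep (ENSMUSG00000039062, chr7:79821803-79861059, minus strand) was at 88.8, 110.5, 210.2 and 81.0 FPKM in control mice and at 43.7, 40.4, 89.5 and 38.2 FPKM in CKD mice. The groups overlapped through CKD mouse 110310 at 89.5 FPKM. Its log2 fold change was -1.18 (SE 0.34, adjusted p = 0.0077), and the exact two-sided permutation test over the 70 arrangements of 4 against 4 mice gave p = 0.086.

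Of the enzymes inside the cell, Ggct (ENSMUSG00000002797, chr6:54982580-54992950, minus strand) was at 58.9, 64.2, 96.1 and 85.5 FPKM in control mice and at 18.0, 13.6, 22.2 and 8.53 FPKM in CKD mice. No CKD mouse came near the control mice, and the CKD mean was 20.4% of the control mean. This was a log2 fold change of -2.27 (SE 0.27, adjusted p = 1.2e-05).

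Chac2 (ENSMUSG00000020309, chr11:30976707-30986350, minus strand) was at 35.7, 29.0, 31.0 and 35.2 FPKM in control mice and at 16.5, 8.27, 8.48 and 11.0 FPKM in CKD mice. CKD mouse 021320 was the highest of its group and still below every control mouse. On the log2 scale the change was -1.53 (SE 0.20, adjusted p = 1.8e-05). Its relative Chac1 did not reach the filter on low values.

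Oplah (ENSMUSG00000022562, chr15:76296597-76328015, minus strand) was at 51.7, 57.0, 30.2 and 46.9 FPKM in control mice and at 44.0, 44.3, 38.3 and 58.2 FPKM in CKD mice. The CKD mice lay within or just above the range of the control mice. Oplah had a log2 fold change of 0.01 (95% interval -0.40 to 0.43, adjusted p = 0.95). After median-of-ratios rescaling it was -0.55 (adjusted p = 0.035). With this rescaling all 9 genes were lower in CKD, beside 29.3% of all genes.

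In 6 of the 9 genes no CKD mouse reached the control range, namely Gclc, Gclm, Gss, Ggt1, Ggct and Chac2, beside 10.4% of the 13133 genes with a value in all 8 mice. For each of the 6, p = 0.0286 in the exact two-sided permutation test, which cannot give a smaller value at this group size.

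**Figure D2:**
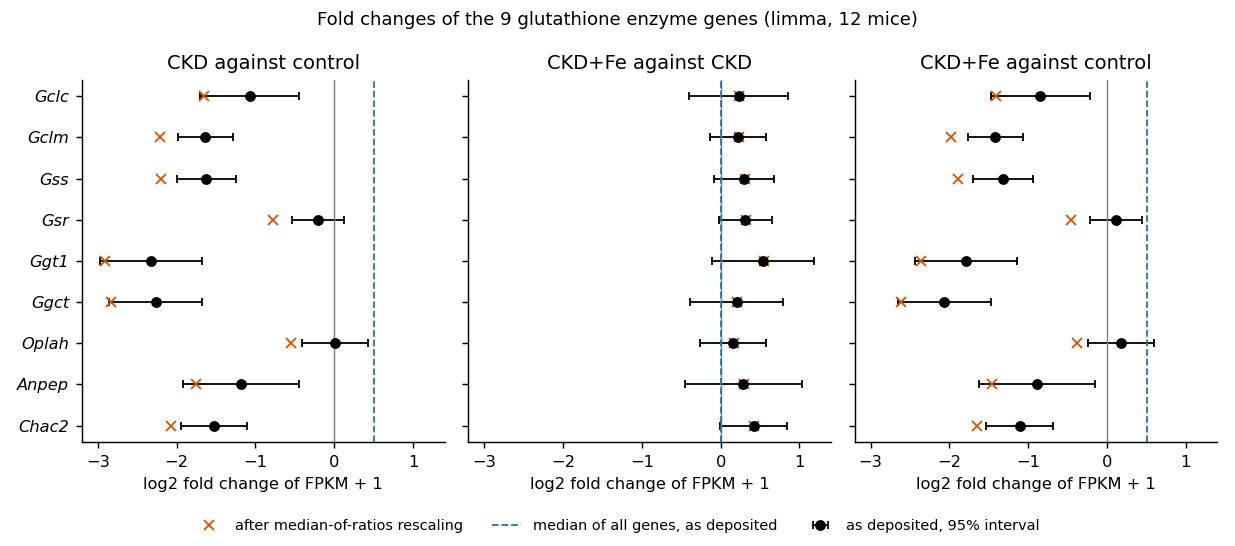
Change of each gene on the log2(FPKM + 1) scale (horizontal axes) in the 3 comparisons, with 95% intervals from limma, the value after median-of-ratios rescaling (crosses) and the median of all genes as deposited (dashed line). In both comparisons with control mice Gsr and Oplah lie near 0 as deposited and to its left after rescaling.

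A ratio of 2 genes within a mouse does not depend on how mice are scaled to each other. The 7 genes that fell were therefore set against Gsr and against Oplah within each mouse, as a description and with no test, since both sides were chosen after their values were seen. The log2 ratio of Ggt1 to Gsr was 3.76 ± 0.32 in control mice (SD, n = 4) and 1.64 ± 0.66 in CKD mice. The ratio of Gclm to Gsr went from 1.84 ± 0.22 to 0.41 ± 0.33, and that of Gss to Gsr from 1.71 ± 0.28 to 0.30 ± 0.55. Both ratios of synthesis to reductase were lower in the CKD mice. For Ggct, the log2 ratio to Oplah, the next enzyme of the cycle, was 0.71 ± 0.70 in control mice and -1.57 ± 0.80 in CKD mice. In 12 of the 14 ratios the CKD mice were all below the control mice, and the ratios of Anpep to Gsr and to Oplah overlapped. Each of the 7 genes is counted against both Gsr and Oplah. They were picked as genes that fell, so this separation was largely set by the choice. The share of all genes separated in this way is not given here, so the count has no background beside it.

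Within glutamate-cysteine ligase, the catalytic and modifier transcripts were not at a fixed ratio. The log2 ratio of Gclc to Gclm was -1.20 ± 0.65 in control mice, -0.64 ± 0.41 in CKD mice and -0.63 ± 0.44 in CKD+Fe mice (SD, n = 4 each). The groups overlapped, and the difference of 0.56 between CKD and control was within the spread between mice (exact two-sided permutation p = 0.20). In control mice the ratio ran from -1.86 in mouse 042301 to -0.36 in mouse 012811.

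Transcripts that mark some cell types changed in CKD as well, mostly downward for the proximal tubule and upward for macrophages and fibroblasts. The summed FPKM of 12 proximal tubule markers ran from 4769 to 6057 in control mice, from 895 to 1566 in CKD mice and from 901 to 2287 in CKD+Fe mice. Of the 12 markers, 10 fell in CKD, and 1 (Slc13a1) rose, a rise that did not pass after median-of-ratios rescaling. The summed FPKM of 10 macrophage markers ran from 100.5 to 176 in control mice and from 867 to 1935 in CKD mice, and all 10 rose. The summed FPKM of 8 fibroblast and matrix genes ran from 97.0 to 154 in control mice and from 534 to 1161 in CKD mice, and all 8 rose (7 after rescaling). None of these markers was at 0 in any mouse. Itgam, a macrophage marker, was below 1 FPKM in every control mouse and passed the filter only through mice on the adenine diet. None of the 6 tested genes of papilla and urothelium passed the test in either direction, and their sum over 7 genes ran from 1.46 to 28.5 FPKM in control mice and from 2.20 to 29.1 FPKM in CKD mice. The part of these cell types in the fall of the glutathione genes was not tested.

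Set against Lrp2 (megalin), an endocytic receptor of the same brush border, Ggt1 had a log2 ratio of 3.61 ± 0.71 in control mice, 2.92 ± 0.75 in CKD mice and 2.98 ± 0.51 in CKD+Fe mice (SD, n = 4 each). Anpep to Lrp2 was 0.36 ± 1.08, 0.82 ± 0.92 and 0.63 ± 1.09 in the same order. The ratios to Lrp2 overlapped between all groups, as the plot of ratios by mouse shows. This holds for Lrp2 as the reference. Other proximal tubule markers moved differently, and 10 of the 12 fell. Lrp2 itself went from 92.2 FPKM in control to 29.1 FPKM in CKD mice. Larger falls were those of Miox, from 2194 to 252 FPKM, and Slc34a1, from 1542 to 271 FPKM. Those that did not fall were Slc5a12, at 36.7 FPKM in control and 36.6 FPKM in CKD mice, and Slc13a1, at 152 and 248 FPKM.

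**Figure D3:**
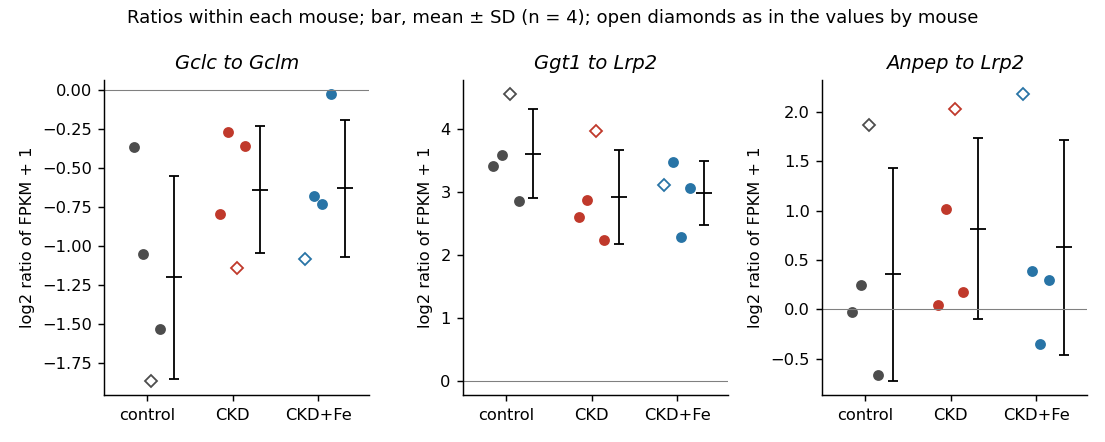
Log2 ratio of FPKM + 1 within each mouse (vertical axes) for Gclc to Gclm, Ggt1 to Lrp2 and Anpep to Lrp2, with mean ± SD of the 4 mice beside the points. The groups overlap in every panel, and the open diamonds are the highest mice of each group for Anpep to Lrp2.

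The 3 mice drawn as open diamonds stood apart from their groups across the transcriptome. Control mouse 042301 had 595 genes at least 2-fold from the mean of the other 3 mice, CKD mouse 110310 had 805 and CKD+Fe mouse 042702 had 442, and the other 9 mice had 41 to 225. Anpep was highest in exactly these mice of each group, at 210.2, 89.5 and 104 FPKM. Oplah was lowest in the same 3 mice, at 30.2, 38.3 and 42.4 FPKM. Gclc was lowest in them too, at 85.7, 46.4 and 49.3 FPKM, and so was Gsr, at 74.1, 61.1 and 63.9 FPKM. Without these 3 mice, a choice made after the data were seen, the same number of genes, 7, was lower in CKD, and Anpep had a log2 fold change of -1.17 (adjusted p = 3.4e-05).

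The comparison of CKD+Fe with CKD mice asks whether iron dextran changed these genes in diseased kidneys. None of the 9 genes passed the test. All 9 log2 fold changes were above 0, from 0.16 (Oplah) to 0.54 (Ggt1), and that of Ggct turned to -0.04 without CKD mouse 120102. Over all genes 49.9% were above 0, and 1 of 13148 genes (0.00761%) was called in either direction. The 9 changes come from the same mice and are not independent of each other. Their median was 0.29, beside 0.43 for the proximal tubule markers and 0.54 for the genes of papilla and urothelium. Macrophage markers had a median of -0.07 and fibroblast and matrix genes -0.50. At an unadjusted p under 0.05, none of the 9 genes was called, and 6.01% of all genes were.

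Chac2 had the smallest p of the 9. Its CKD+Fe mice were at 11.8, 14.8, 18.4 and 13.9 FPKM, and the CKD mice at 8.27 to 16.5 FPKM overlapped with them. Against CKD the log2 fold change was 0.42 (95% interval -0.0033 to 0.84, adjusted p = 0.83).

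Ggt1 was at 198, 524, 301 and 314 FPKM in CKD+Fe mice. Mouse 062910 was above every CKD mouse, and the other 3 were within their range. Its difference from CKD was 0.54 on the log2 scale (95% interval -0.11 to 1.18, adjusted p = 0.90). Mice 062910 and 042702, with the highest and the lowest Ggt1, also had the highest (2287) and the lowest (901) summed FPKM of proximal tubule markers among CKD+Fe mice. The other groups did not repeat this. Control mouse 042301 had the highest Ggt1 (1360 FPKM) and the lowest sum (4769). Among CKD mice 022301 was lowest in both, but Ggt1 was highest in mouse 110310 and the sum in mouse 021320 (1566).

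The enzymes of synthesis did not pass the test against CKD either. The 4 CKD+Fe mice had 105, 124, 102 and 98.8 FPKM of Gclm, and its log2 fold change was 0.22 (95% interval -0.13 to 0.57, adjusted p = 0.96). Gss was at 99.4, 111, 105.5 and 103 FPKM, the lowest coefficient of variation of the 9 genes in any group (4.81%). Its log2 fold change was 0.30 (95% interval -0.08 to 0.68, adjusted p = 0.91), and it was 0.49 without CKD mouse 110310 and 0.52 (adjusted p = 0.069) without mice 042301, 110310 and 042702. Gclc was at 49.3, 77.2, 61.1 and 97.1 FPKM, and its log2 fold change was 0.23 (95% interval -0.40 to 0.86, adjusted p = 0.98).

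Gsr was at 63.9, 94.0, 87.7 and 104.7 FPKM in CKD+Fe mice, 3 of which were above every CKD mouse. Its log2 fold change was 0.31 (95% interval -0.02 to 0.65, adjusted p = 0.84). Anpep was at 104, 60.6, 47.7 and 45.4 FPKM, Ggct at 11.8, 25.8, 17.1 and 16.2 FPKM, and Oplah at 42.4, 56.6, 47.2 and 59.9 FPKM, each overlapping the CKD mice. For none of the 9 genes was every CKD+Fe mouse above every CKD mouse, beside 1.35% of all genes. The intervals leave room for rises of up to 2.27-fold (Ggt1), for no change and for falls to 0.733 times the CKD level (Anpep).

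Against control mice, 7 of the 9 genes (Gclc, Gclm, Gss, Ggt1, Ggct, Anpep and Chac2) were lower in CKD+Fe, beside 11.0% of all genes lower and 54.4% higher, and the median of the 9 genes was -1.11. The untreated and iron-treated comparisons share their control mice. Ggct was at 23.3% and Ggt1 at 30.3% of the control mean in CKD+Fe mice, with log2 fold changes of -2.07 (SE 0.27, adjusted p = 3.5e-05) and -1.79 (SE 0.30, adjusted p = 0.00019). Gclm was at 37.2%, Gss at 39.5% and Chac2 at 45.0% of the control mean. All CKD+Fe mice were below all control mice for these 5 genes, beside 9.82% of all genes.

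Gclc and Anpep were the weaker calls in iron-treated mice. For Gclc it was -0.85 on the log2 scale (SE 0.29, adjusted p = 0.021), and CKD+Fe mouse 122320 at 97.1 FPKM was above 2 control mice. The call was lost without control mouse 012811 (-0.53, adjusted p = 0.063), CKD+Fe mouse 042702 (-0.69, adjusted p = 0.067) or CKD+Fe mouse 111710 (-0.79, adjusted p = 0.051). Anpep had a log2 fold change of -0.89 (SE 0.34, adjusted p = 0.034). That call was lost without control mouse 042301 (-0.60, adjusted p = 0.11) or 012822 (-0.91, adjusted p = 0.058), and without CKD+Fe mouse 062910 (-0.89, adjusted p = 0.060), 111710 (-0.78, adjusted p = 0.089) or 122320 (-0.75, adjusted p = 0.095). Gsr (0.11, adjusted p = 0.54) and Oplah (0.17, adjusted p = 0.45) again did not pass. After median-of-ratios rescaling 8 of the 9 genes were lower, beside 27.5% of all genes. Gsr then turned to -0.45 (adjusted p = 0.035).

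The genes with the most similar profile over the 12 mice, by root mean square distance of centred log2 values, were found for the 7 genes with a log2 fold change of at least 1 in size. Gss was closest to Sod1, the cytosolic superoxide dismutase (distance 0.12), then to Cgref1 and Grtp1 (both 0.12). Chac2 was closest to Sod2, the mitochondrial superoxide dismutase (0.16), then to Cth (0.16), which makes cysteine, and to Etfa (0.17). Ggct was closest to Ggt1 (0.27), the only pair of members among these neighbours, then to Haao (0.28) and Tcea3 (0.30). Ggt1 was closest to Slc22a18, Haao and Sardh (0.19, 0.19 and 0.21). Gclm was closest to Erich4, Hibadh and Ppa2 (0.14, 0.14 and 0.16). Anpep was closest to Rnasek, Ptms and Mrps34 (0.15, 0.19 and 0.23). Gclc was closest to G0s2, Slc39a8 and Kyat3 (0.27, 0.29 and 0.29). The profiles share the same 12 libraries and the same separation of control from CKD mice.

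Of 11 genes that supply cysteine and glutamate for synthesis, 7 fell and 2 rose in CKD (9 and 1 after median-of-ratios rescaling), beside 13.3% lower and 54.6% higher over all genes (29.3% lower after rescaling). Slc7a13, a transporter of aspartate, glutamate and cystine of the proximal tubule, fell from 519 ± 138 to 30.9 ± 27.2 FPKM (log2 fold change -4.49, adjusted p = 1.7e-05). Cbs, the first enzyme of transsulfuration, fell from 116 ± 10.4 to 21.7 ± 10.9 FPKM (-2.48, adjusted p = 1.3e-05). Slc7a11, the cystine importer xCT, rose from 0.00476 to 0.0325 FPKM in control mice to 0.746 to 3.72 FPKM in CKD mice (1.48, adjusted p = 0.00039). No control mouse reached 1 FPKM, so Slc7a11 passed the filter only through mice on the adenine diet, which limits its call. In CKD+Fe mice Slc7a13 was at 65.6 ± 31.5 FPKM and Slc7a11 at 1.41 ± 0.423 FPKM, and neither passed the test against CKD.

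Other enzymes of gamma-glutamyl and Cys-Gly breakdown went both ways, with 4 lower and 3 higher of 7 tested, as after rescaling, beside the same shares of all genes. Cndp2, a cytosolic dipeptidase that splits Cys-Gly, fell from 975 ± 52.6 to 156.6 ± 35.6 FPKM (-2.66, adjusted p = 9.3e-08), and Lap3, a leucine aminopeptidase, from 275 ± 19.3 to 93.9 ± 25.8 FPKM (-1.58, adjusted p = 1.1e-05). Dpep2, a membrane dipeptidase of leukocytes, rose from 0.583 ± 0.216 to 13.3 ± 7.55 FPKM (3.03, adjusted p = 2.7e-06). Dpep2 and Ggt7, both among the 3 that were higher, stayed below 1 FPKM in every control mouse (highest 0.822 and 0.486 FPKM). They passed the filter only through mice on the adenine diet, which limits their calls. Ggt5, a relative of Ggt1, rose from 1.80 ± 0.559 to 7.22 ± 2.06 FPKM (1.54, adjusted p = 0.00014), and its level remained far below that of Ggt1 in the same mice. In CKD+Fe mice Cndp2 was at 144 ± 29.2 FPKM, Dpep2 at 8.76 ± 1.94 FPKM and Ggt5 at 6.94 ± 2.91 FPKM.

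Of 14 genes of disulfide reduction and NADPH supply, among them glutaredoxins, thioredoxin reductases and enzymes that make NADPH, 8 fell and 3 rose, beside 13.3% lower and 54.6% higher over all genes. In CKD+Fe against control mice 3 were lower and 2 higher, beside 11.0% and 54.4% of all genes. Me1, malic enzyme, fell from 167 ± 34.7 to 35.2 ± 11.2 FPKM (-2.24, adjusted p = 6.8e-06), and Nnt, the mitochondrial transhydrogenase, from 41.2 ± 5.96 to 20.4 ± 3.88 FPKM (-0.99, adjusted p = 0.00027). The pentose phosphate enzyme Pgd rose from 51.4 ± 3.15 to 86.1 ± 11.6 FPKM (0.72, adjusted p = 0.00024) and H6pd from 62.8 ± 10.8 to 103 ± 18.0 FPKM (0.71, adjusted p = 0.0014). After rescaling 9 of the 14 genes were lower, beside 29.3% of all genes, and none was higher. Pgd was then at 0.15 (adjusted p = 0.30) and H6pd at 0.14 (adjusted p = 0.49). Against CKD, CKD+Fe mice had log2 fold changes of 0.31 in Pgd (adjusted p = 0.78) and -0.45 in H6pd (adjusted p = 0.65).

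Of 9 transporters of glutathione and its conjugates, 5 fell and 3 rose, beside 13.3% lower and 54.6% higher over all genes. After rescaling 5 were lower and 2 higher, beside 29.3% of all genes lower. Slc13a3, a dicarboxylate carrier of the basolateral membrane, fell from 208 ± 42.0 to 60.9 ± 11.0 FPKM (-1.75, adjusted p = 1.1e-05). Slc25a39, which carries glutathione into mitochondria, fell from 645 ± 80.5 to 223 ± 103 FPKM (-1.62, adjusted p = 5.2e-05). The export pumps Abcc4 and Abcc1 rose, from 5.50 ± 0.857 to 17.5 ± 4.05 FPKM and from 2.79 ± 0.361 to 9.96 ± 2.85 FPKM (both 1.49, adjusted p = 1.2e-05 and 3.0e-05). In CKD+Fe mice Slc13a3 was at 107 ± 27.9 FPKM (0.79 against CKD, adjusted p = 0.40) and Slc25a39 at 248 ± 23.3 FPKM.

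Brush border peptidases share the membrane of Ggt1 and Anpep. Among 8 tested, 3 fell and 1 rose, beside 13.3% lower and 54.6% higher over all genes. After rescaling 5 were lower and 0 higher, beside 29.3% of all genes lower. Mep1b, a subunit of meprin, fell from 128 ± 16.9 to 12.8 ± 6.95 FPKM (-3.36, adjusted p = 1.6e-06) and Ace, angiotensin-converting enzyme, from 60.3 ± 15.1 to 14.0 ± 8.15 FPKM (-2.15, adjusted p = 9.7e-05). Dpp4, dipeptidyl peptidase 4, rose from 13.2 ± 2.58 to 21.1 ± 6.16 FPKM (0.61, adjusted p = 0.029), and after rescaling this was 0.06 (adjusted p = 0.82). The other 4 did not pass the test.

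Of 11 genes of Nrf2 (Nfe2l2), its partners and targets, 6 rose and 1 fell, shares near those of all genes (54.6% higher and 13.3% lower). Gclc and Gclm, which are targets as well, are counted among the 9 genes and were lower. Nfe2l2 rose from 38.7 ± 3.48 to 84.2 ± 10.8 FPKM (1.10, adjusted p = 1.4e-05), and after rescaling it was still higher at 0.53 (adjusted p = 0.0037). Slc7a11 rose and Me1 fell, with the values given above, and Slc7a11 passed the filter only through mice on the adenine diet. With rescaled values, 3 of the 11 were higher and 4 lower, beside 29.3% of all genes lower. The share of all genes higher after rescaling is not given here. Nfe2l2 after iron was at 92.5 ± 14.1 FPKM (0.13 against CKD, adjusted p = 0.97). No gene of these 6 lists passed the test in CKD+Fe against CKD. At an unadjusted p under 0.05, beside 6.01% of all genes, there were 4 of the 9 transporters, 3 of the 14 genes of disulfide reduction and NADPH supply, 2 of the 8 peptidases, 2 of the 11 genes of Nrf2 and its targets, 1 of the 11 genes of supply and 0 of the 7 other genes of breakdown.

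**Figure D4:**
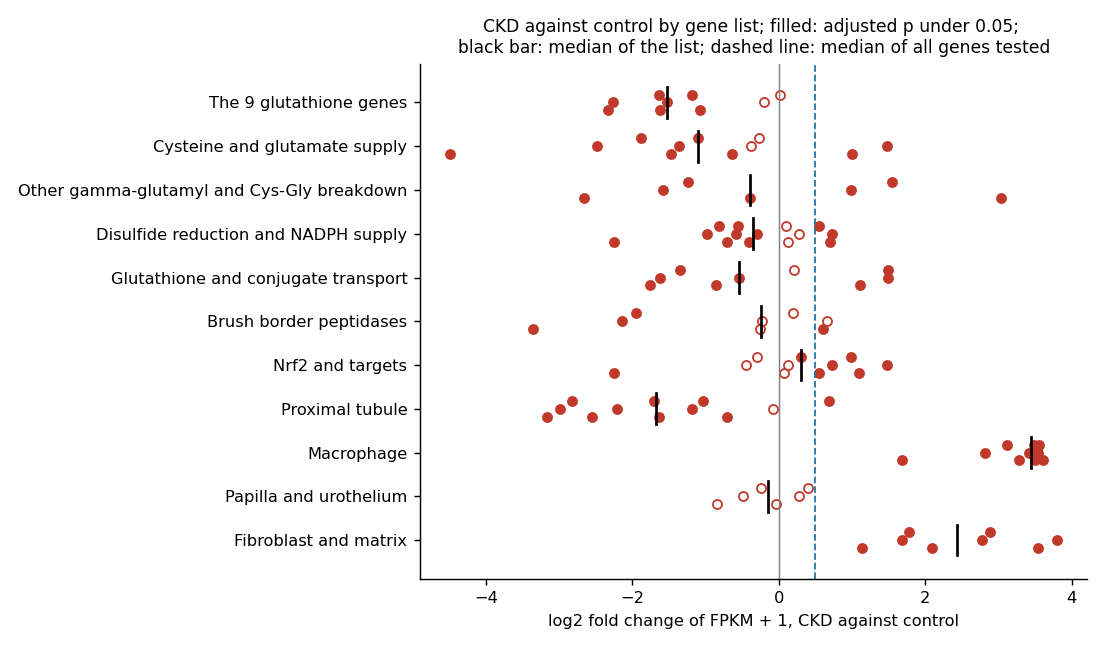
Difference of CKD from control mice on the log2(FPKM + 1) scale (horizontal axis) for the 9 glutathione genes and each gene list, 1 point per gene, filled where the adjusted p was under 0.05, with the median of each list (black bar) and of all genes tested (dashed line, 0.50). The 9 glutathione genes have a median of -1.53, the proximal tubule markers -1.67 and the genes of Nrf2 and its targets 0.31.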

How the data were processed

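RNA sequencing was done on whole kidneys of 12 mice, 1 stranded mRNA library each, with single-end reads of 50 cycles. The authors deposited FPKM values for protein-coding genes with an estimate status per mouse. The submitters' processing notes name STAR 2.5.2, Cufflinks 2.1.1, bcl2fastq 2.19 and GRCm38, and the settings and gene annotation are not given in the sources used here. The study's methods name DESeq2 on normalized read counts, which were not used here, since FPKM are not counts. FPKM are relative to the total of a mouse, so a change of total RNA cannot be measured.

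The 30 values with a failed status were set to missing, and all 108 values of the 9 genes were estimated. After addition of a pseudocount of 1, log2 FPKM were fitted by limma 3.58.1 (R 4.3.3, variance trend, all 12 mice in 1 fit) for genes that reached 1 FPKM in 4 or more mice. Two-sided P values were Benjamini-Hochberg adjusted across the genes tested, at a threshold of 0.05, in place of the cutoff of 0.5 in the study's methods. Fold changes of low genes are understated on this scale. Exact permutation tests used all 70 arrangements of 4 against 4 mice. The fit was also run on simulated data in which few genes changed and all genes together did not shift, so it cannot test the scaling between mice. The labels name no batch. Where they do not say that mice came from separate litters or cages, p values measure the spread between these mice.

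The members and lists were chosen with earlier results of these data known. All members are named. Of each list, up to 2 called genes with the largest rise and 2 with the largest fall in CKD are named, and for each member that changed by at least 1 on the log2 scale, the 3 nearest genes. Lists may share genes, Me1, Pgd and Slc7a11 among them. Dpep1 was not matched. Some genes of the lists are not reported here by name. Alternatives were a pseudocount of 0.1, no filter, a minimum mean of 5 FPKM, rescaling by the median of ratios or by quantiles, a fit of the compared groups alone, array quality weights, no variance trend, an adjusted p under 0.5 and each mouse left out. Promoter windows were read from RefSeq, and bases in exons of GENCODE M21 were removed.

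Read numbers are unknown. The smallest steps of low FPKM values gave relative depths of 0.681 to 0.892 against control mouse 012811, from 19 to 71 genes per mouse, so the estimate is rough. In the table, Gclm shares 244 exon bases with the pseudogene Gm6061 on the same strand. Exons of Gss and Oplah overlap genes on the opposite strand, and whether strand was used in counting is not given in the sources used here.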

Additional observations from a re-analysis of the deposited data

Results flagged for a closer look

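Anpep in CKD mouse 110310 stood apart from the other CKD mice at 89.5 FPKM, beside 38.2 to 43.7 FPKM in the other 3. The gap to the nearest mouse was 0.893 of the range of the group, above Dixon's 95% critical value for 4 samples. It was the only one of 27 groups of 4 values (9 genes in 3 groups) to pass this criterion, and chance passes about 1 in 20. Without this mouse Anpep had a log2 fold change of -1.46 in CKD against control (limma, adjusted p = 0.0015).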

How the results depend on the processing

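In CKD against control 7 of the 9 genes remained the number called under every alternative but median-of-ratios rescaling (9) and an adjusted p under 0.5 (8). With that rescaling 29.3% of all genes were lower. The share of all genes at an adjusted p under 0.5 is not given here, so that count has no background beside it. In CKD+Fe against CKD 0 were called under every alternative, the smallest adjusted p being 0.069 for Gss without mice 042301, 110310 and 042702. In CKD+Fe against control the number was 5 to 8 over all alternatives, and 5 to 7 when 1 mouse was left out. With median-of-ratios rescaling all 8 called were lower, beside 27.5% of all genes. At an adjusted p under 0.5, 7 were lower and 1 was higher. The number was 5 without a filter and with quantile normalization, where Gclc (adjusted p = 0.063 and 0.060) and Anpep (0.097 and 0.054) lost their calls. Their log2 fold changes over the fits without 1 mouse ran from -1.03 to -0.53 and from -1.15 to -0.60.

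Directions that turned were those of Oplah, Gsr and Ggct. Oplah in CKD against control went to -0.55 with median-of-ratios rescaling, -0.054 with quantile normalization, -0.082 with array quality weights and -0.093 without mice 042301, 110310 and 042702, and ran from -0.18 to 0.12 when 1 mouse was left out. In CKD+Fe against control it was -0.39 with median-of-ratios rescaling and -0.019 to 0.28 when 1 mouse was left out. Gsr was -0.45 with that rescaling. Ggct in CKD+Fe against CKD ran from -0.040 to 0.39 when 1 mouse was left out, and up to 0.55 over all alternatives. The rescaling lowers all values of CKD mice relative to controls by its construction. The other causes were not tested.

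No paired analysis was possible because the groups share no replicate numbers. No counting error can be given for FPKM, and with 4 mice per group the exact test cannot go below 0.0286.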
